A study of Mus musculus with 2 samples.

Results

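The genes described here are the C-type lectin receptors Clec4n (Dectin-2), Clec4d (MCL) and Clec4e (Mincle), their signaling adaptor Fcer1g, and the kinase and complex members Syk, Card9 and Malt1 that act behind them. They were chosen by name, with their pattern over cell types in these libraries already seen, and were matched on the gene symbol in both count tables. Of the 8 genes named by the rule, 7 had a row among the 32285 genes of each table, and Clec7a was not analysed here. The study asked what intra-articular complete Freund's adjuvant (CFA), an oil emulsion that holds killed mycobacteria, does to the cells of the mouse temporomandibular joint (TMJ). It has 2 scRNA-Seq libraries, 1 of PBS-injected and 1 of CFA-injected TMJs of wild-type female C57BL/6 mice, labelled as 8 to 10 weeks old. Per the methods, both joints received the injection at 8 weeks of age (CFA as 10 µL at 5 mg/mL), the tissue was collected 3 weeks later (n = 3), and CD45+ cells were depleted from the suspension before loading. Each condition is therefore 1 library with no replicate, no test between conditions was possible, and the 95% intervals below cover counting error only.

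Dectin-2, MCL and Mincle are receptors of the myeloid surface that bind glycolipids and mannose-rich molecules of microbial walls. Mincle and MCL recognize the mycobacterial cord factor trehalose dimycolate, and Dectin-2 recognizes mannose-capped lipoarabinomannan. None of these receptors carries a complete signaling motif of its own. They pair with the Fc receptor gamma chain, encoded by Fcer1g, whose tyrosine motif recruits the kinase SYK. SYK activity leads to assembly of CARD9 with BCL10 and the paracaspase MALT1, which opens the route to NF-kB and to cytokine and chemokine genes.

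The 3 receptor genes lie side by side on mouse chromosome 6 (GRCm38, GENCODE annotation). Clec4n spans chr6:123229843-123247021 on the plus strand, Clec4d spans chr6:123262111-123275265 on the plus strand, and Clec4e spans chr6:123281789-123289870 on the minus strand. The gap from Clec4n to Clec4d is 15.1 kb and that from Clec4d to Clec4e is 6.52 kb. Fcer1g lies at chr1:171229572-171234365, Card9 at chr2:26352176-26360918 and Syk at chr13:52583173-52648792.

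RefSeq promoter sequence (GRCm38.p6) was at hand for 5 of the members. The 250 bases before the start of the 2 neighbouring receptor genes are shown because their levels ran closely together in the cells below. Capitals mark GAGGAA, the core of the binding sequence of PU.1, a transcription factor of the myeloid lineage, read on either strand (TTCCTC is its reverse complement).
Clec4d (chr6:123261857-123262106, plus strand): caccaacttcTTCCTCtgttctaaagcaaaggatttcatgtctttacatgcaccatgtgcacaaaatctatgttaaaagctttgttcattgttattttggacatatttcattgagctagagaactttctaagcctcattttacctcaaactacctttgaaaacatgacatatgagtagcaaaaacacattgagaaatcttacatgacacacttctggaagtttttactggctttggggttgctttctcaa
Clec4e (chr6:123289872-123290121, minus strand): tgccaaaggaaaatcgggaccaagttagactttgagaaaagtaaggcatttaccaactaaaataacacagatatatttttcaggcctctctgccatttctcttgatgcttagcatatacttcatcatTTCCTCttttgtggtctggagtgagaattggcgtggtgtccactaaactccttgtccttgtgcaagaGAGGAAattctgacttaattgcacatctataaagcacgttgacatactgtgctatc
The Clec4d window holds this core at position -240 on the opposite strand, counted from the gene start. The Clec4e window holds it at position -123 on the opposite strand and at -56 on the strand of the gene. Of the 32851 RefSeq promoter windows of this length, 23.3% hold the core at least once. The C/EBP letters TTGCNNAA, searched on both strands like the rest, were found in the Clec4e window at -66, where they overlap no PU.1 core, and in 9.56% of all windows, and not in the Clec4d window. The AP-1 letters TGANTCA were found in neither window and in 6.75% of all windows. A match in letters is a description of the sequence, and binding was not measured.

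After the limits on genes, mitochondrial and hemoglobin UMIs, 2667 of 7671 PBS barcodes and 4014 of 5709 CFA barcodes remained. Their median depth was 7022 UMIs in the PBS and 6510 UMIs in the CFA library (unique molecular identifiers, 1 per captured transcript). The hemoglobin limit was exceeded by 4554 PBS and 779 CFA barcodes. Clusters were named from canonical markers, and 133 PBS cells (4.99%) and 1072 CFA cells (26.7%) fell in myeloid classes. Without the hemoglobin limit, PBS had 239 progenitor-like and 345 immature neutrophil-like cells in place of 19 and 26, and CFA 65 and 151 in place of 63 and 72. Depletion of CD45+ cells acts on these numbers, and the gene for CD45, Ptprc, still had a UMI in 95.3% of mature neutrophil-like cells of either library. The classes used here are granulocyte-monocyte progenitor-like cells (19 PBS, 63 CFA), immature neutrophil-like (26, 72), mature neutrophil-like (43, 278), monocyte-like (18, 66), macrophage-like (19, 313) and osteoclast-like macrophage-like cells (1, 268). The last carry Mmp12, Dcstamp and Spp1, genes of bone-resorbing and matrix-degrading macrophages, and are called osteoclast-like macrophages below. Of the 7 markers of that class, 5 passed the limits for detection, and the osteoclast genes Ctsk and Ocstamp did not. Barcode sequences held by both libraries numbered 10 as deposited and 2 among the kept cells.

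Clec4n was a gene of macrophages and of a subset of neutrophils in the CFA library. Levels are given as CPM, the UMIs of a gene per 1000000 UMIs of the class, with the 95% interval in brackets. Clec4n reached 1431 CPM (1406 to 1455) in osteoclast-like macrophages, 504 (483 to 526) in macrophage-like cells and 432 (403 to 462) in mature neutrophil-like cells. Monocyte-like cells held 129 (106 to 156), granulocyte-monocyte progenitor-like cells 55.1 (44.1 to 68.1) and immature neutrophil-like cells 34.5 (24.6 to 47.2). The intervals of the last 2 classes overlap, and those of the others are apart. In the PBS library the gene had 81 UMIs in all kept cells, and the order of classes there, leaving out the 1 osteoclast-like macrophage with 2 UMIs, was macrophage-like at 145 (103 to 198), monocyte-like at 88.4 (54.7 to 135), mature neutrophil-like at 31.2 (15.6 to 55.8) and progenitor-like at 4.05 (0.491 to 14.6), with 0 UMIs in immature neutrophil-like cells.

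In the CFA library, Clec4d and Clec4e were highest in mature neutrophils in CPM. As UMIs per cell they were not, with medians of 6 and 4 against 27 and 12 in the more deeply covered osteoclast-like macrophages. Clec4d stood at 1142 CPM (1094 to 1191) in mature neutrophil-like cells and 860.1 (841 to 879) in osteoclast-like macrophages. It held 606 (582 to 629) in macrophage-like and 452 (408 to 500) in monocyte-like cells. Progenitor-like cells held 122 (105 to 140) and immature neutrophil-like cells 85.0 (68.9 to 104). Each of these classes is apart from the next by more than counting error in this clustering, with the last 2 closest. Over the alternatives the immature neutrophil-like CFA level ran from 32.6 to 451 for Clec4d, 56.3 to 383 for Clec4e and 11.3 to 224 for Clec4n, highest for Clec4d and Clec4e where only the Il1f9 cluster was named mature. Clec4e stood at 940.2 (897 to 985) in mature neutrophil-like, 631 (578 to 687) in monocyte-like, 547 (532 to 562) in osteoclast-like and 496 (475 to 517) in macrophage-like cells. Its level in progenitor-like cells was 221 (198 to 245), above the 94.7 (77.6 to 114) of immature neutrophil-like cells. Monocyte-like cells thus stood next to the top for Clec4e but behind both macrophage classes and mature neutrophils for Clec4d and Clec4n. In the PBS library, leaving out its 1 osteoclast-like macrophage (7 UMIs of Clec4d, 4 of Clec4e), Clec4d was again highest in mature neutrophil-like cells (371, 311 to 441), while Clec4e was highest in monocyte-like cells (396, 320 to 484) and lower in mature neutrophil-like cells (232, 185 to 289).

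**Figure D1:**
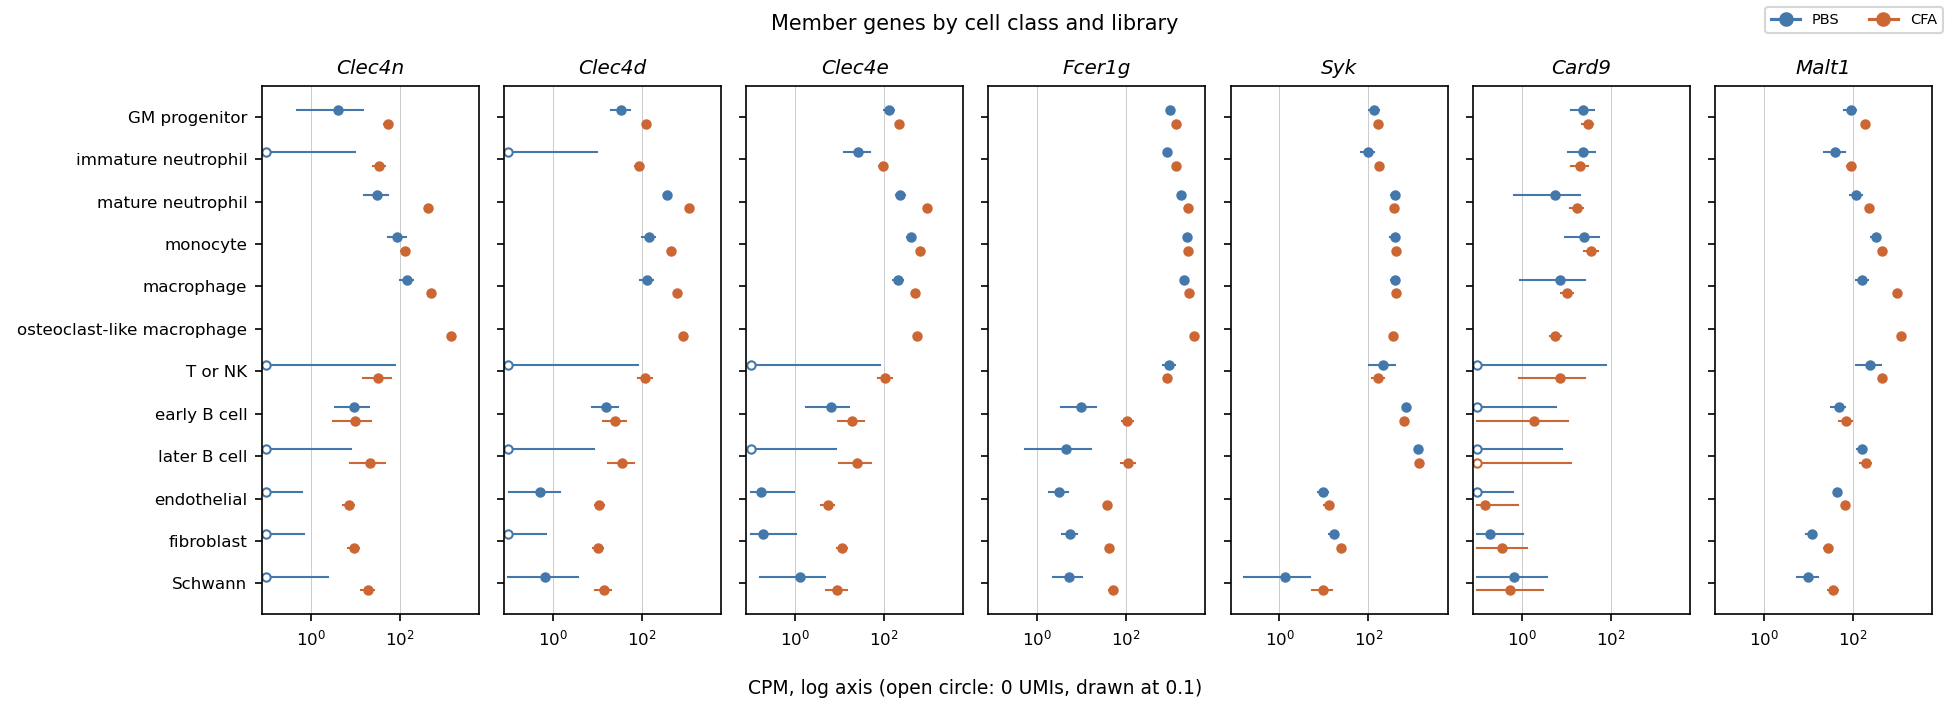
Levels of the 7 members in 12 cell classes of the PBS and CFA libraries, as CPM of the class on a log axis; points are levels, lines exact Poisson 95% intervals, and classes under 5 cells are left out. The receptors Clec4n, Clec4d and Clec4e are high in myeloid classes, CFA lies above PBS in most of them, and CFA also lies above PBS in endothelial, fibroblast and Schwann cells.

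Receptor UMIs were also found in CFA cells of classes that are not known to express these genes. In 1036 endothelial-like CFA cells there were 49 UMIs of Clec4n, 76 of Clec4d and 37 of Clec4e, or 7.15, 11.1 and 5.40 CPM. In 755 endothelial-like PBS cells there were 0, 3 and 1. After each cell was thinned to 1000 UMIs, 2.90% of endothelial-like CFA cells had a UMI of any receptor gene against 80.2% of mature neutrophil-like CFA cells (median depths before thinning 4424 and 3984 UMIs). Before thinning the shares were 13.3% and 97.5%. The Clec4n level of immature neutrophil-like CFA cells (34.5) is within counting error of that of T or NK-like (33.2, 15.2 to 62.9), satellite-like (27.0, 15.7 to 43.3) and later B-like CFA cells (21.2, 7.79 to 46.2). Within the CFA library the ratio of Clec4n to Clec4d UMIs was 49 to 76 in endothelial-like, 825 to 2182 in mature neutrophil-like and 13191 to 7931 in osteoclast-like cells. How much free RNA adds to the low myeloid levels was not tested.

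The mature neutrophil-like class held 3 clusters, and the receptors differed widely among them. The first was led by granule and surface genes such as Ltf, Ngp and Ly6g (28 PBS, 93 CFA cells). It was named mature, with 7 of 8 mature markers detected, but Ltf and Ngp are on the list of immature neutrophil markers. Ltf stood there at 8526 CPM in PBS and 8547 in CFA, against 3015 and 6136 in the main immature neutrophil-like cluster. The second was led by Retnlg and Cxcr2, the latter a receptor for neutrophil chemokines (10 and 58 cells), and the third by Il1f9, Acod1 and Hcar2 (5 and 127 cells). In the CFA library, Clec4d stood at 82.6 CPM (66.5 to 101) in the main immature neutrophil-like cluster, 444 (407 to 483) in the Ltf cluster, 1871 (1720.3 to 2031) in the Cxcr2 cluster and 2794 (2629 to 2967) in the Il1f9 cluster. The intervals of these 4 clusters do not touch. Clec4e took the same order, from 89.9 (73.1 to 109) over 477 (439 to 518) and 1081 (968 to 1204) to 2310.2 (2160.3 to 2468).

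Clec4n did not follow these steps. It was 33.6 (23.7 to 46.3) in the immature cluster, 155 (134 to 179) in the Ltf cluster and 170.4 (127 to 223) in the Cxcr2 cluster, the last 2 with overlapping intervals, and then 1525 (1404 to 1654) in the Il1f9 cluster. The interval of the Il1f9 cluster takes in the level of osteoclast-like macrophages (1431), whereas those of the other mature clusters overlap that of monocyte-like cells (106 to 156). The PBS library showed the same ranking for Clec4d, from 0 UMIs in the immature cluster over 107 (72.1 to 153) and 1192 (924 to 1514) to 2126 (1472 to 2970.4), on 30, 67 and 34 UMIs in the mature clusters. Its Clec4n count in the Il1f9 cluster was 9 UMIs in 5 cells (563, 257 to 1068), against 1 UMI in each of the other mature clusters. Median depth differed over these clusters, at 9787, 4202 and 2662 UMIs per cell for the Ltf, Cxcr2 and Il1f9 clusters of the CFA library. The steps are in CPM. As UMIs per cell, Clec4e was at 6.28, 5.69 and 6.95 in these 3 clusters, and Clec4d at 5.84, 9.84 and 8.41. At 1000 UMIs per cell, 31.2%, 61.4% and 78.0% of their cells had a UMI of Clec4e, and 26.9%, 86.0% and 87.8% one of Clec4d.

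**Figure D2:**
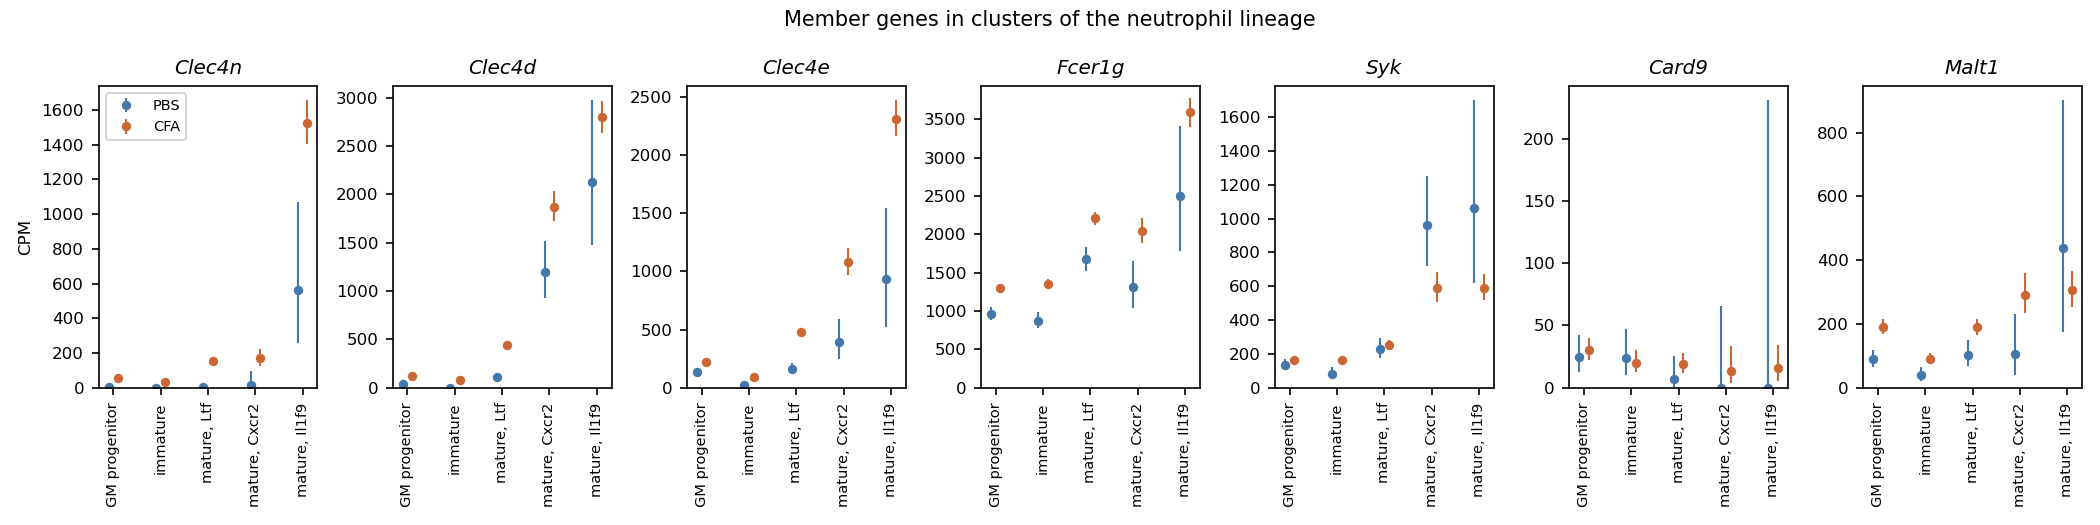
Levels of the 7 members, as CPM with exact Poisson 95% intervals, in the progenitor-like cluster, the main immature neutrophil-like cluster and the mature neutrophil-like clusters led by Ltf, Cxcr2 and Il1f9, PBS and CFA apart; each panel has its own axis from 0. Clec4d and Clec4e step up in both libraries from the immature cluster to the Ltf, Cxcr2 and Il1f9 clusters, while Clec4n stays low until the Il1f9 cluster.

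Within mature neutrophil-like cells, the only myeloid class with at least 30 cells in both libraries, all 3 receptor genes were higher in the CFA library. Clec4n went from 11 UMIs (31.2 CPM) in PBS to 825 UMIs (432 CPM) in CFA, a CFA to PBS ratio of 13.8 (7.70 to 27.8). Clec4e had a ratio of 4.04 (3.24 to 5.11) and Clec4d one of 3.07 (2.58 to 3.70). Counting Card9, which rests on 2 PBS UMIs (3.05, 0.779 to 26.2), 4 of 7 members were at least 2-fold higher in CFA and 0 were at least 2-fold lower. Over all 7272 genes with 20 or more UMIs in these cells, 12.4% were 2-fold higher and 10.8% 2-fold lower, and the median gene ratio was 0.997. With at least 50 UMIs required, 3 members were higher and 0 lower, against 12.8% and 5.65% of genes, and at 1.5-fold 5 were higher and 0 lower, against 22.2% and 21.4%. The Ltf cluster was the largest of the class in PBS and the Il1f9 cluster the largest in CFA, so the ratios were also taken inside clusters. Inside the Ltf cluster they were 43.6 (7.72 to 1729) for Clec4n on 1 PBS UMI, 4.15 (2.87 to 6.21) for Clec4d and 2.98 (2.20 to 4.12) for Clec4e. In the Cxcr2 cluster they were 9.57 (1.64 to 385), 1.57 (1.22 to 2.05) and 2.76 (1.79 to 4.47), and in the Il1f9 cluster, with 5 PBS cells, 2.71 (1.42 to 5.96), 1.31 (0.935 to 1.91) and 2.46 (1.49 to 4.42). The Clec4e ratio was between 2.46 and 2.98 in the 3 clusters, and the interval of the Clec4d ratio in the Il1f9 cluster included 1. Without the second clustering of myeloid cells, only the Il1f9 cluster was named mature, so these last values then stood for the class. With each cell classed on its own markers, the ratios were 6.10 for Clec4n, 1.43 for Clec4d and 2.07 for Clec4e. Summed over the 7 markers of later B cells, the class held 479 CPM in PBS and 666 in CFA, and over the 8 macrophage markers 369 and 634. All 7 B cell markers had UMIs in the PBS class, but only 3 in the CFA class, namely Cd79b at 3.14 CPM against 130.4 in PBS, Cd22, and Cd74, which macrophages and dendritic cells also express. Ms4a1, Ighd and Fcmr had 0 UMIs there. The part of these RNAs in the ratios was not tested.

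The other 4 classes compared had at least 15 but under 30 PBS cells, and their ratios were added after the data were seen. In macrophage-like cells (19 PBS, 313 CFA), 4 of 7 members were at least 2-fold higher in CFA, against 10.5% of 9665 genes, and 0 were 2-fold lower, against 14.7%. The ratios there were 3.48 (2.54 to 4.91) for Clec4n, 4.66 (3.34 to 6.71) for Clec4d, 2.38 (1.83 to 3.17) for Clec4e and 6.09 (4.51 to 8.43) for Malt1, and in the larger of its 2 clusters alone (16 PBS, 255 CFA cells) they were 3.52, 4.93, 2.54 and 5.48. The 8 mature neutrophil markers summed to 20544 CPM in PBS and 5222 in CFA macrophage-like cells. The 7 later B cell markers summed to 3071 in PBS and 9527 in CFA, with Cd79b alone at 81.7 and 5.17. Their list includes Cd74, which macrophages themselves express, so this sum is no measure of B cell RNA here. The part of these RNAs in the ratios was not tested. The Clec4e ratio was 1.54 without the 5% of highest doublet scores and 8.31 with each cell classed on its own markers, and the Clec4n ratio was 1.89 when the libraries were merged on log-normalized counts, with no integration step, and 7.65 at a clustering resolution of 0.8. In monocyte-like cells (18, 66), 1 of 7 members passed 2-fold, Clec4d at 3.16 (2.22 to 4.63), against 8.86% of genes higher and 7.29% lower. Clec4e there was at 1.59 (1.28 to 2.01) and Clec4n at 1.46 (0.909 to 2.45), an interval that includes 1. In immature neutrophil-like cells (26, 72), 4 of 7 were higher, against 9.48% of genes, and 0 lower, against 9.03%. PBS counts were 0 there for Clec4n and Clec4d, which makes CFA at least 4.38-fold and 10.8-fold higher when 3 counts are set for the PBS class, and Clec4e was at 3.61 (1.89 to 7.73). Over the alternatives Clec4e ran there from 1.76 to 8.06 and Malt1 from 1.69 to 6.55, so neither kept the 2-fold call in each of them. In progenitor-like cells (19, 63), 3 of 7 were higher, against 8.96% of genes, and 0 lower, against 3.68%, with Clec4n at 13.6 (3.65 to 114) on 2 PBS UMIs and Clec4d at 3.54 (2.15 to 6.20). Over the alternatives these ran from 2.58 to 62.2 for Clec4n, 1.78 to 13.6 for Clec4d and 1.65 to 5.51 for Malt1. The 8 mature neutrophil markers summed to 608 CPM in PBS and 3485 in CFA progenitor-like cells, and the 8 macrophage markers to 91.2 and 244. In immature neutrophil-like cells the macrophage markers summed to 7.88 CPM in PBS, where 6 of 8 had 0 UMIs, and 746 in CFA. The part of these RNAs in the ratios was not tested. For these last 2 classes, endothelial-like cells of the same libraries had a Clec4d ratio of 21.9 (7.22 to 109), at the far lower levels given above. Their Clec4n ratio was 14.1 with 3 counts set for PBS (exact lower limit 11.1).

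**Figure D3:**
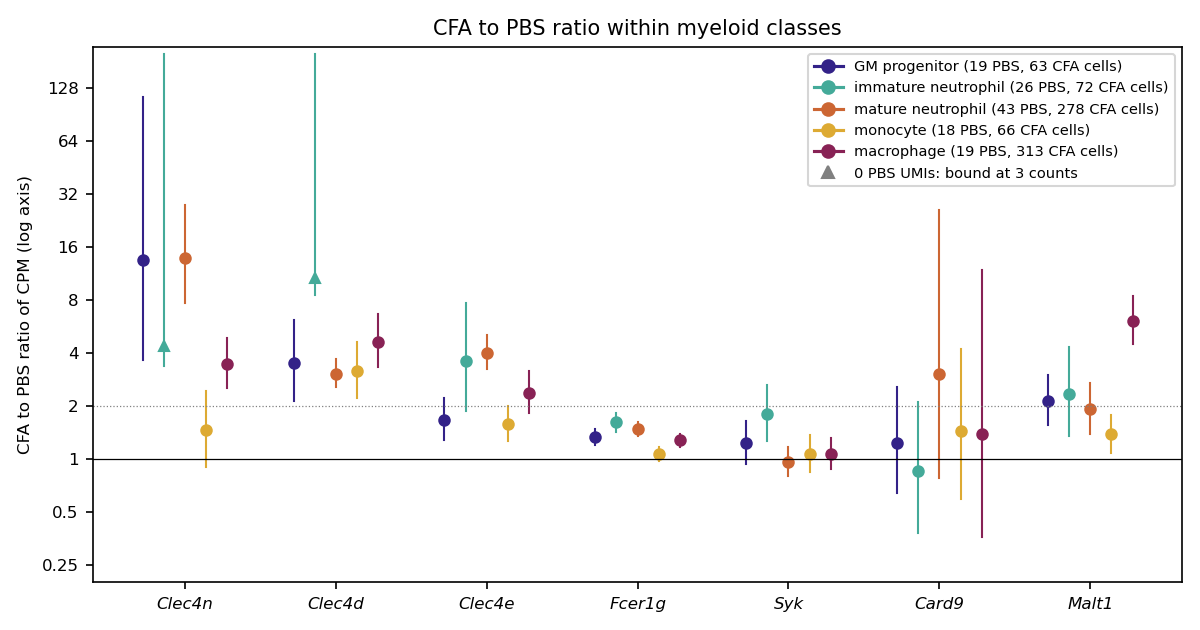
CFA to PBS ratio of the CPM of each member in 5 myeloid classes on a log axis, with exact 95% intervals cut at 200; the solid line marks 1, the dotted line 2, and triangles are lower bounds for classes with 0 PBS UMIs. In the classes as drawn, the receptor genes and Malt1 lie above 1, Fcer1g between 1.07 and 1.63, and Syk between 0.969 and 1.24 except in immature neutrophil-like cells (1.80).

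Over all kept cells the receptor transcripts were far more abundant in the CFA library. Clec4n was at 2.98 CPM in PBS and 377 in CFA, a ratio of 127 (102 to 159), Clec4d at 9.96 and 312 (ratio 31.3, 27.8 to 35.5), and Clec4e at 12.9 and 232 (18.0, 16.2 to 20.1). Osteoclast-like macrophages, 268 cells in CFA and 1 in PBS, gave 78.8% of the Clec4n UMIs of the CFA library, 57.2% of Clec4d and 48.9% of Clec4e. Mature neutrophil-like cells gave 4.93% of Clec4n, 15.7% of Clec4d and 17.4% of Clec4e there. In PBS, macrophage-like cells gave 48.1% of Clec4n, mature neutrophil-like cells 48.3% of Clec4d, and monocyte-like cells 26.9% of Clec4e. When the CFA level of each class was weighted by that class's share of PBS UMIs, the ratio was 9.17 for Clec4n, 4.76 for Clec4d and 3.20 for Clec4e. The whole-library ratios therefore also hold the difference in class mix, and the number of cells of a class in these suspensions also depends on the depletion step.

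**Figure D4:**
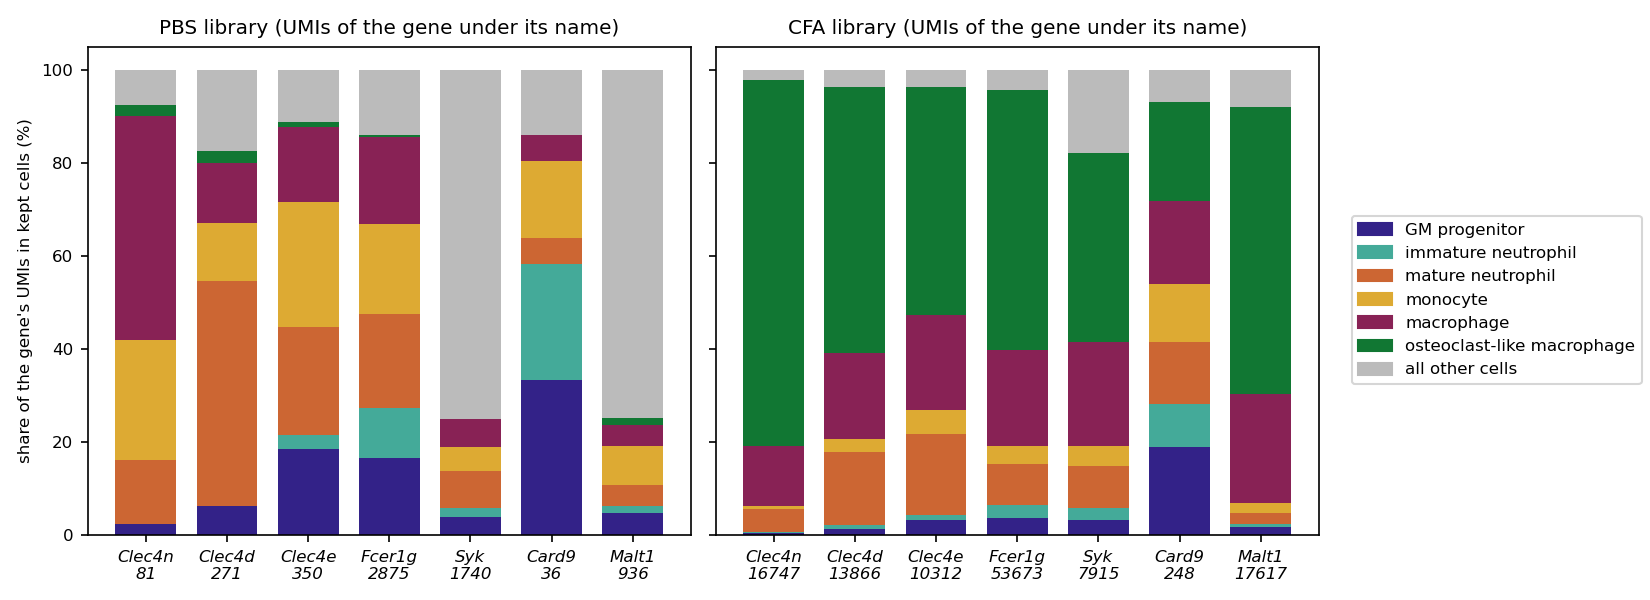
Share of each member's UMIs in kept cells that came from each myeloid class, as stacked bars from 0 to 100% for the PBS and CFA libraries, with the gene's UMI total under its name. Osteoclast-like macrophages make up most of the CFA bars for Clec4n (78.8%) and Malt1 (61.6%), and cells outside the shown classes most of the PBS bars for Syk and Malt1.

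Single cells often held more than 1 receptor. At 1000 UMIs per cell, 242 of 268 osteoclast-like macrophages of the CFA library had a UMI of at least 1 receptor gene (90.3%, exact binomial 95% interval 86.1 to 93.6), 107 had 2 and 40 had all 3. Of 273 mature neutrophil-like CFA cells, 219 had at least 1 (80.2%, 75.0 to 84.8), 91 had 2 and 59 had all 3 (21.6%). Of 42 mature neutrophil-like PBS cells, 18 had at least 1 (42.9%, 27.7 to 59.0), 8 had 2 and 1 had all 3. Of the monocyte-like cells, 8 of 18 in PBS and 39 of 66 in CFA carried a receptor UMI, and 0 of either had all 3. At this depth Clec4d and Clec4e were found together in 129 mature neutrophil-like CFA cells, with Clec4d without Clec4e in 53 and the reverse in 31. In osteoclast-like macrophages both were found in 57 cells, Clec4d without Clec4e in 95 and the reverse in 45. At full depth the order of the classes turned, with both in 254 osteoclast-like macrophages (13 and 1 with a single one) and in 220 mature neutrophil-like cells (22 and 27), and the difference was not tested. Fcer1g, which these receptors need for signaling, had a UMI in 183 of the 219 receptor-positive mature neutrophil-like cells and in 230 of the 242 osteoclast-like macrophages. With or without a receptor UMI, it was found in 250 of the 268 osteoclast-like macrophages at this depth. In the Ltf, Cxcr2 and Il1f9 clusters of the CFA library it was found in 92.5%, 77.2% and 83.7% of cells. The receptor-positive counts thus describe the general presence of Fcer1g. At full depth, 252 of 268 osteoclast-like macrophages and 126 of 278 mature neutrophil-like CFA cells had all 3 receptors, at median depths of 31793 and 3984 UMIs.

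**Figure D5:**
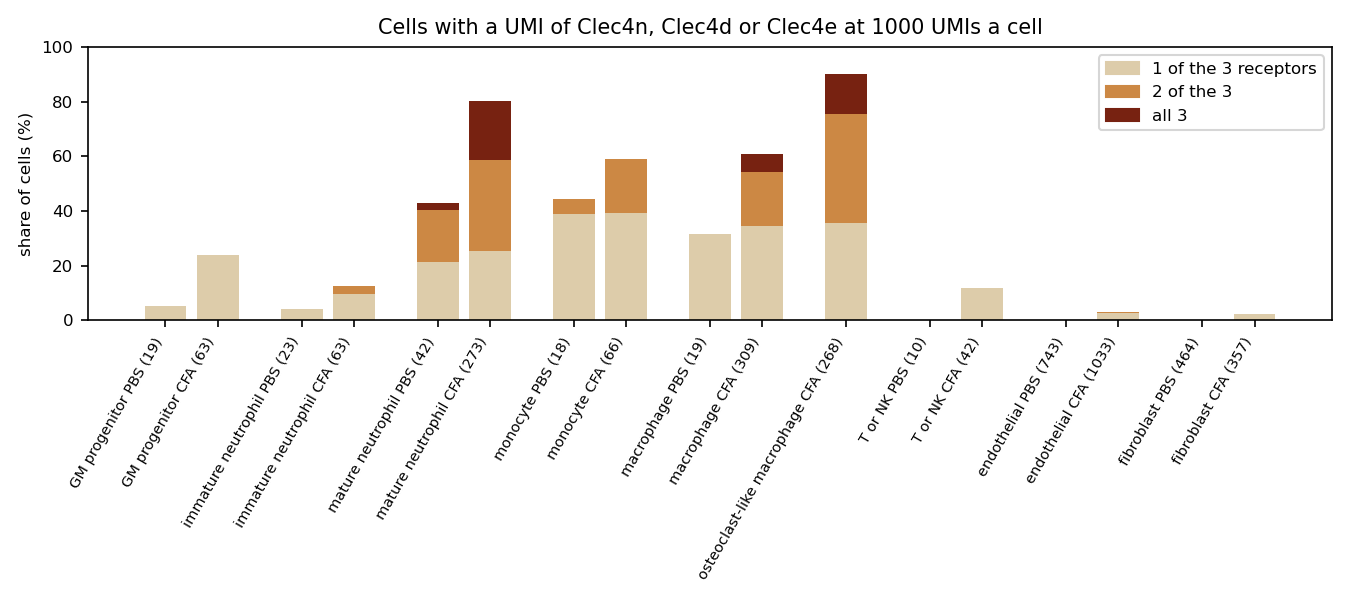
Share of cells with a UMI of 1, 2 or all 3 of Clec4n, Clec4d and Clec4e after thinning to 1000 UMIs per cell, as stacked bars for each class and library with the number of cells in brackets. Mature neutrophil-like and osteoclast-like CFA cells reach 80.2% and 90.3%, and endothelial-like and fibroblast-like CFA cells stay under 3%.

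Fcer1g was present throughout the myeloid classes of both libraries. Its CFA level ran from 1294 CPM (1238 to 1352) in progenitor-like cells and 1321 (1255 to 1389.9) in immature neutrophil-like cells, whose intervals overlap, to 2457 (2388 to 2529) in mature neutrophil-like, 2496 (2390.3 to 2604) in monocyte-like, 2594 (2546 to 2643) in macrophage-like and 3253 (3216 to 3290.1) in osteoclast-like cells. The CFA to PBS ratios were 1.48 (1.36 to 1.62) in mature neutrophil-like, 1.63 (1.44 to 1.85) in immature neutrophil-like, 1.34 (1.21 to 1.48) in progenitor-like, 1.28 (1.18 to 1.40) in macrophage-like and 1.07 (0.977 to 1.18) in monocyte-like cells. None of these reached 2, but without the hemoglobin limit the ratio was 5.16 in progenitor-like and 4.29 in immature neutrophil-like cells, and with each cell classed on its own markers it was 0.831 in progenitor-like cells. In these 5 classes the adaptor stood at 812 to 2324 CPM in PBS, while Clec4n was at 0 to 145. T or NK-like cells, in which this chain serves Fc receptors and natural cytotoxicity receptors, held 932 (675 to 1255) in PBS and 832 (727 to 948) in CFA.

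Syk, the kinase recruited to the adaptor, was highest in B cells, where it acts behind the B cell receptor. Later B-like cells held 1277 CPM (1174 to 1386) in PBS and 1400.1 (1266 to 1545) in CFA, and early B-like cells 686 and 639. Among myeloid classes of the CFA library other than mast or basophil-like cells (12 cells, 96.4), Syk ranged from 165 (146 to 187) in progenitor-like to 417 (374 to 462) in monocyte-like cells, with macrophage-like cells at 416 (396 to 435) and mature neutrophil-like cells at 374 (347 to 402). Its CFA to PBS ratio was 0.969 (0.806 to 1.17) in mature neutrophil-like, 1.08 (0.883 to 1.33) in macrophage-like and 1.08 (0.853 to 1.37) in monocyte-like cells, so a level more than 1.37-fold higher in CFA lies outside each of these intervals. The value in macrophage-like cells was 1.81 when the libraries were merged on log-normalized counts, with no integration step, and 1.89 with each cell classed on its own markers. Immature neutrophil-like cells had 97.2 (68.5 to 134) in PBS and 175 (152 to 202) in CFA. Like Clec4d, Syk was higher in CPM in the later neutrophil clusters of the CFA library. It stood at 252 (224 to 281) in the Ltf cluster, 589.7 (507 to 682) in the Cxcr2 cluster and 591 (517 to 674) in the Il1f9 cluster. As UMIs per cell, Syk was at 3.31, 3.10 and 1.78 in these clusters, whose median depths were 9787, 4202 and 2662 UMIs. At 1000 UMIs per cell, 18.3%, 42.1% and 36.6% of their cells had a Syk UMI. Unlike the receptors, Syk was lower in CPM in CFA than in PBS in the Cxcr2 and Il1f9 clusters, at ratios of 0.614 (0.450 to 0.848) and 0.556 (0.340 to 0.972). The B cell receptor chain genes Cd79a and Cd79b were at 819 and 516 CPM in the Cxcr2 cluster in PBS, against 19.7 and 13.1 in CFA, and their part in the Syk ratio there was not tested. In the Il1f9 cluster both had 0 UMIs in either library, which in the 5 PBS cells allows up to 188 CPM.

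Card9 gave few UMIs, 36 in PBS and 248 in CFA kept cells, and its order over classes differed from that of the receptors. In the CFA library it was 36.7 CPM (24.9 to 52.1) in monocyte-like, 30.1 (22.1 to 40.1) in progenitor-like and 20.4 (12.9 to 30.6) in immature neutrophil-like cells. Mature neutrophil-like cells held 17.3 (11.9 to 24.2), macrophage-like cells 10.3 (7.52 to 13.9) and osteoclast-like macrophages, the class with the most Clec4n, 5.75 (4.31 to 7.52). Neighbours in this order overlap in their intervals, except macrophage-like and osteoclast-like cells at the margin, but the interval of osteoclast-like macrophages is clear of those of monocyte-like, progenitor-like, immature and mature neutrophil-like cells. PBS levels were 25.3 in monocyte-like, 24.3 in progenitor-like and 23.7 in immature neutrophil-like cells on 6, 12 and 9 UMIs. Every CFA to PBS ratio of Card9 within these 5 classes had an interval that included 1, and a 2-fold higher level in CFA was inside each of these intervals.

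Malt1, the paracaspase that acts with CARD9 and BCL10, lies at chr18:65430938-65479067 and was a macrophage gene in the CFA library. It stood at 1177 CPM (1155 to 1199) in osteoclast-like macrophages and 972 (943 to 1002) in macrophage-like cells, against 456 (411 to 503) in monocyte-like, 229 (208 to 252) in mature neutrophil-like and 92.1 (75.2 to 112) in immature neutrophil-like cells. In PBS, macrophage-like cells held 159.7 (116 to 215), below the 328 (259.6 to 409.8) of PBS monocyte-like cells. In the main clustering, the ratio of 6.09 in macrophage-like cells was the highest of Malt1 in any of the 5 classes. It was 2.14 (1.56 to 3.01) in progenitor-like, 2.34 (1.35 to 4.32) in immature neutrophil-like, 1.92 (1.40 to 2.71) in mature neutrophil-like and 1.39 (1.09 to 1.79) in monocyte-like cells. Over the alternatives it ran from 3.48 to 6.87 in macrophage-like, 1.65 to 5.51 in progenitor-like and 1.69 to 6.55 in immature neutrophil-like cells. Inside the mature neutrophil-like clusters the Malt1 ratio was 1.83 (1.24 to 2.80) for Ltf, 2.73 (1.21 to 7.64) for Cxcr2 and 0.699 (0.329 to 1.78) for Il1f9, and the last value stood for the class at a resolution of 0.8 or without the second clustering. The smaller macrophage-like cluster of the CFA library (58 cells, median 4125 UMIs, 6.12% mitochondrial) stood apart, with Malt1 at 2475 (2305 to 2654) but Fcer1g at only 524 (447 to 609.5). Its leading genes were Iglc1, P2ry10b and Ksr2, and 3 macrophage markers were detected in it. Endothelial-like cells also held Malt1, at 44.7 (39.5 to 50.4) in PBS and 65.5 (59.6 to 71.9) in CFA. Whether intronic reads were counted is not given in the sources used here, and Malt1 and Syk are the longest members (48.1 and 65.6 kb).

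The other genes of the route were read from lists chosen with earlier results known. Among 13 cytokine, chemokine and enzyme genes downstream, 9 passed the count limit in mature neutrophil-like cells and 6 of them were at least 2-fold higher in CFA, against 12.4% of all genes, with a list median of 3.77 against 0.997 for all genes. Cxcl2, a neutrophil chemokine, was at 1279 CPM in PBS and 5780.3 in CFA (ratio 4.52, 4.11 to 4.98), Il1b at 1157 and 4357 (3.77, 3.41 to 4.17) and Ptgs2, which encodes an enzyme of prostaglandin synthesis, at 62.4 and 287 (4.60, 3.01 to 7.41). In monocyte-like cells 9 of 11 were higher, against 8.86% of all genes, Cxcl2 at 3.86 (3.31 to 4.52) and Ccl4 at 3.22 (2.62 to 3.99). In macrophage-like cells 4 of 12 were higher, against 10.5% of all genes, and 2 lower, against 14.7%, with a median of 0.960 against 0.887 for all genes, Cxcl2 at 2.69 (2.42 to 3.00) and Ccl3 at 0.387 (0.332 to 0.452). The same shares apply to the inhibitors. Of these 9, 2 were higher in mature neutrophil-like cells, the NF-kB feedback genes Nfkbia at 3.37 (2.93 to 3.90) and Tnfaip3 at 4.49 (2.84 to 7.52), and 3 in monocyte-like cells, Cblb at 4.65 (2.76 to 8.43) with these same 2. In macrophage-like cells only Cblb passed, at 2.21 (1.54 to 3.29), and Nfkbia was at 0.922 (0.823 to 1.04).

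Of 16 genes for links between receptor and CARD9, 2 of 12 measured were higher in mature neutrophil-like CFA cells, near the 12.4% of all genes, Bcl10, the partner of MALT1, at 2.99 (1.78 to 5.43) and Lcp2, while the SRC-family kinase gene Lyn was at 1.36 (1.22 to 1.53) and Plcg2, a phospholipase behind SYK, at 0.641 (0.487 to 0.852). In macrophage-like cells 1 of 14 was higher and 2 were lower, near the 10.5% and 14.7% of all genes, and Bcl10 was at 0.880 (0.624 to 1.28). Of 8 NF-kB and IKK genes, 3 of 8 measured were higher in mature neutrophil-like cells (Nfkb1 at 2.04, 1.58 to 2.69, with Nfkb2 and Chuk), 1 of 7 in monocyte-like cells and 0 of 8 in macrophage-like cells, against 12.4%, 8.86% and 10.5% of all genes. Of 14 other myeloid C-type lectins, 8 passed the count limit in mature neutrophil-like cells, where 4 were higher and 0 lower, against 12.4% and 10.8% of all genes, with a list median of 2.02 against 0.997 for all genes. They were Clec4a3 at 6.18 (1.65 to 52.1), Clec1a at 4.24 (0.689 to 175), Clec4a1 at 2.77 (1.03 to 10.5) and Olr1, the lectin-like receptor for oxidized LDL, at 2.44 (1.83 to 3.33). In macrophage-like cells 3 of 12 were higher, among them Clec5a at 4.43 (1.71 to 16.4) and Olr1 at 3.76 (2.23 to 6.90), and 3 were lower, Clec10a at 0.1601 (0.108 to 0.243), Clec4b1 at 0.151 (0.0855 to 0.279) and Cd209a at 0.0317 (0.0108 to 0.0839), against 10.5% and 14.7% of all genes. In monocyte-like cells 1 of 8 was higher, Olr1 at 7.15 (3.40 to 18.0), and 1 lower, near the 8.86% and 7.29% of all genes. Clec12a, an inhibitory receptor, was at 1.18 (0.865 to 1.65) in mature neutrophil-like and 1.23 (0.908 to 1.69) in macrophage-like cells, and Clec4a2 at 1.20 (0.946 to 1.54) and 0.799 (0.554 to 1.19). Of 6 alternative adaptors, 4 passed the count limit in mature neutrophil-like cells, where 0 were higher and 2 were lower, Cd79a and Cd79b. The shares of all genes there were 12.4% and 10.8%. In macrophage-like cells 0 of 6 were higher and the same 2 lower, against 10.5% and 14.7% of all genes. Tyrobp was at 1.32 (1.21 to 1.44) in mature neutrophil-like and 0.892 (0.808 to 0.988) in macrophage-like cells.

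The genes whose levels ran most like each member were ranked over 27 class-by-library sums, which share libraries, and 12561 genes. For Clec4d the nearest gene was its neighbour Clec4e (Pearson r = 0.986), and Acod1 was among the next (0.982). For Clec4e the nearest was Nlrp3 (0.990), with Wfdc17 also near (0.986), and for Clec4n the nearest were Pla2g7 (0.967), Cd300c2 (0.959) and Il1rn (0.954), ahead of Clec4d (0.930). Fcer1g ran with Lyz2 (0.984), Tyrobp (0.981) and Lilrb4a (0.978), Syk with Pik3cg, Prkcb and Pik3ap1 (0.975 to 0.977), Card9 with AI839979, Mefv and Gpr141 (0.940 to 0.957), and Malt1 with Fcgr2b, Ctss and Pik3r5 (0.942 to 0.949). Between members, Syk and Card9 were least alike (0.472), and Clec4n and Syk next (0.550). With a pseudocount of 1 in place of 10 CPM, Il1b came first for Clec4d (0.981) and Clec4d first for Clec4n (0.960).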

How the data were processed

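The authors sequenced dissociated mouse TMJ tissue, 1 library per condition, and deposited raw UMI counts per gene and barcode made with Cell Ranger 7.0.1 on mm10. The annotation and whether intronic reads were counted are not given in the sources used here. The labels name an earlier kit chemistry and other digestion enzymes than the methods do.

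Barcodes with at least 500 genes, at most 10% mitochondrial and at most 1% hemoglobin UMIs were kept (Python 3.11.15, R 4.3.3). Both libraries were integrated with SCTransform (Seurat 5.3.0, sctransform 0.4.2; 3000 genes, 200 principal components, resolution 1.5), with members and pathway genes left out. Myeloid clusters were clustered again (30 components, resolution 0.8), a step chosen after a first naming was seen. A cluster was named from at least 3 detected canonical markers, and 6 of 40 clusters stayed unnamed. Scrublet in scanpy 1.11.5 marked 21 PBS and 6 CFA cells, so doublets were kept and the 5% of highest scores removed only as an alternative.

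Levels are UMIs summed over a class and scaled to CPM, with exact Poisson 95% intervals, ratios have exact conditional intervals (scipy 1.17.1), and a class with 0 UMIs was set to 3 counts. With 1 library per condition no test was made. A gene with at least 20 UMIs in a class was called at 2-fold. Shares were also taken after thinning to 1000 UMIs, which left out 55 PBS and 129 CFA cells, and have exact Clopper-Pearson intervals. UMIs are molecules, but intervals and limits cover counting error only. The named genes are the members, the pathway lists and, for each member, the 3 genes of highest Pearson r over log2(CPM + 10), of which some are not reported here. Members and lists were chosen with earlier results of these data known. The statistics were tested on simulated data. Clustering, filters, doublets, totals, scaling and thresholds were varied.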

Additional observations from a re-analysis of the deposited data

Results flagged for a closer look

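Syk differed in the direction of its library difference between neutrophil clusters. Its CFA to PBS ratio was 1.80 (1.26 to 2.64) in immature neutrophil-like cells (1.19 to 3.27 over the alternatives) and 1.09 (0.829 to 1.44) in the mature cluster led by Ltf, but 0.614 (0.450 to 0.848) in the mature cluster led by Cxcr2 and 0.556 (0.340 to 0.972) in the mature cluster led by Il1f9. These values were marked because groups of cells under the same contrast differed in direction, with 1 library on each side, and the difference was not tested. The values of the Cxcr2 and Il1f9 clusters rest on 54 and 17 PBS UMIs in 10 and 5 cells. Syk was highest in B cells, and the B cell genes Cd79a and Cd79b were at 819 and 516 CPM in PBS and at 19.7 and 13.1 in CFA in the Cxcr2 cluster, but had 0 UMIs in both libraries in the Il1f9 cluster. The part of B cell RNA in the ratio of the Cxcr2 cluster was not tested.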

How the results depend on the processing

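No paired analysis was possible because each condition has 1 library and no result comes from a test. In mature neutrophil-like cells the CFA to PBS ratio was 13.8 for Clec4n, 3.07 for Clec4d and 4.04 for Clec4e. It was 2.71, 1.31 and 2.46 at a clustering resolution of 0.8, and the same without the second clustering of myeloid cells, an alternative added after the data were seen, because only 1 cluster was then named mature. With each cell classed on its own markers it was 6.10, 1.43 and 2.07. Without the hemoglobin limit it was 22.2 for Clec4n, 4.11 for Clec4d and 5.34 for Clec4e. Members at least 2-fold higher in that class numbered 4, with 3 when at least 50 UMIs were required (12.8% of all genes higher, 5.65% lower) and 5 at 1.5-fold (22.2% and 21.4%), and 0 were lower in each case. Other classes moved as well. Without the hemoglobin limit, ratios in progenitor-like cells were 11.2 for Clec4e, 13.6 for Clec4d, 2.47 for Syk and 5.51 for Malt1, the Malt1 ratio in immature neutrophil-like cells was 6.55, and the Clec4n ratio in monocyte-like cells was 5.61, against 0.9502 when the libraries were merged on log-normalized counts. With each cell classed on its own markers, the progenitor-like ratios were 0.954 for Clec4e and 1.78 for Clec4d. The Syk ratio in mature neutrophil-like cells ran from 0.556 to 1.22. The cause of these moves was not tested. Over all members, classes and alternatives, 0 of 493 ratios turned direction while called, and 90 moved by more than the counting interval. Of 567 levels, 227 did so. Card9 and the PBS counts of Clec4n are limited by depth.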

Other observations

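Mast or basophil-like cells, few in both libraries (7 PBS, 12 CFA), held the adaptor and Mincle but little of the rest of the route. Fcer1g, which in these cells is a chain of the IgE receptor, was at 2711 CPM (2261 to 3223) in PBS and 2273 (2034 to 2532) in CFA. Clec4e was at 318 (178 to 524) and 324 (238 to 430.4), a ratio of 1.02 (0.560 to 1.96). Clec4d was at 84.7 (23.1 to 217) and 145 (89.5 to 221) on 4 and 21 UMIs, and Clec4n had 0 and 4 UMIs. Syk had 1 and 14 UMIs there.

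T or NK-like cells of the CFA library (44 cells) held Malt1 at 457 (380 to 545), close to monocyte-like cells of that library, and Clec4d at 118 (80.6 to 166) and Clec4e at 107 (71.5 to 153). The 10 such cells of the PBS library had 0 UMIs of each receptor, which allows up to 65.0 CPM. The receptor UMIs of the CFA class lay in 10 of the 44 cells. Its Clec4d and Clec4e intervals overlap those of immature neutrophil-like CFA cells. The neutrophil marker S100a8 was at 3522 CPM in this class in CFA and 65.0 in PBS, and the part of myeloid RNA in these levels was not tested.

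An unnamed cluster led by Siglech, Ccr9 and Cox6a2 (12 PBS, 22 CFA cells) held Syk at 448 (308 to 629) in PBS and 661 (558 to 778) in CFA, and Fcer1g at 692 (515 to 909.96) and 960.2 (835 to 1099). Clec4n had 0 and 2 UMIs in it.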
